A study of Drosophila melanogaster with 2 samples.

Results

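The peaks of the Jun protein Jra on the X chromosome of Drosophila melanogaster numbered 644, of 3827 in the authors' reproducible list on genome build dm6. Every region that the list places on the X was taken, whatever its signal. Jra was profiled by ChIP-seq, in which DNA cross-linked to a protein is precipitated, sequenced and counted along the genome. Flies were transgenic for Jra with GFP at its C terminus, and an antibody to GFP was used, so the values describe the tagged protein. Both sexes were pooled as intact larvae at the wandering stage of the third instar, and tissues cannot be told apart in such material. The samples form a single group of 2 biological replicates, numbered 1 and 3, of 1 genotype and stage, and nothing more is said of their origin. Control libraries were left out. The X peaks are compared with the 3159 peaks on the autosomes, and 24 mitochondrial peaks are left out. The 644 entries span 641 distinct intervals, since 3 intervals are listed with 2 summits each.

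Jra binds DNA together with the Fos protein kay as the transcription factor AP-1, which acts below the JNK kinase pathway in wound closure, stress and tissue shape. AP-1 recognises a short palindromic word, TGACTCA on one strand and TGAGTCA on the other. Female flies carry a pair of X chromosomes and males a single one. In males the MSL complex, guided by the RNAs roX1 and roX2, acetylates histones on the X and raises the transcription of its genes, a process called dosage compensation. The labels do not give the numbers of males and females in either pool. X copy number and binding per copy therefore cannot be told apart where X and autosomal signals are compared.

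The exact AP-1 word lay within 50 bp of the summit of 23 X peaks, and the windows that follow show the forms it took. They are the 5 strongest of these peaks, the 1 peak with the word at 2 places (DAAM) and the 4 peaks where the word is extended to ATGACTCAT (mys, CG4025, dlg1 and CG34417). Each is the plus strand of dm6, 5′ to 3′, with the AP-1 word in capitals; the sqh window is shortened because it reaches a transcribed leader.
Zw intron (chrX:19668553-19668653): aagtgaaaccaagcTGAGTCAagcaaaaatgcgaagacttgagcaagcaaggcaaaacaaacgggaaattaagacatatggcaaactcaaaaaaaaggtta
sqh promoter (chrX:6224528-6224554): cgcagctctcTGAGTCActcgcgcaaa
Pp2C1 intron (chrX:4684723-4684823): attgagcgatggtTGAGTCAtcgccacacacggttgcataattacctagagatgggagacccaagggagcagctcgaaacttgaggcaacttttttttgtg
Hex-A promoter (chrX:9585552-9585652): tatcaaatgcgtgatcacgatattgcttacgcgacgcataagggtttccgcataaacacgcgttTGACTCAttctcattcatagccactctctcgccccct
RhoGAP18B promoter (chrX:19153503-19153603): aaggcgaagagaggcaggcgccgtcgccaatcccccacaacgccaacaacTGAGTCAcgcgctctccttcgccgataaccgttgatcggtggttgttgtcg
mys intron (chrX:8063354-8063454): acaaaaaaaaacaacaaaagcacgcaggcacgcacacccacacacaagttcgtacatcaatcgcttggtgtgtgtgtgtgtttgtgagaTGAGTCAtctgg
DAAM intron (chrX:1321184-1321284): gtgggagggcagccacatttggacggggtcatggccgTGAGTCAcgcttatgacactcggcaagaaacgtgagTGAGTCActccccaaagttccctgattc
CG4025 promoter (chrX:2077296-2077396): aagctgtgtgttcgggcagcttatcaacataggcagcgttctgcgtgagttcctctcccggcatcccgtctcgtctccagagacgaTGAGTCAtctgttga
dlg1 promoter (chrX:11389808-11389908): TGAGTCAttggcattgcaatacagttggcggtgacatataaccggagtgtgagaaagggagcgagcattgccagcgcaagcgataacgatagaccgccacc
CG34417 intron (chrX:6544074-6544174): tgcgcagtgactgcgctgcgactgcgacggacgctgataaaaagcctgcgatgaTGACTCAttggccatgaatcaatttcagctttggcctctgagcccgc

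The site lay at no fixed place in these windows, at a median of 20 bp from the summit, and within 10 bp of it in 6 of the 23 peaks. The word was extended to ATGACTCAT at 4 of 24 X sites near a summit (16.7%), against 99 of 1834 such words anywhere on the X (5.40%). An A before or a T after the word stood at 15 of the 24 sites (62.5%), against 48.3% of all words on the X. These shares are descriptions of few sites and were not tested.

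Most X peaks, the strongest one included, held no exact AP-1 word near the summit. For comparison, the windows of the strongest X peak (Ugalt, with neither the exact word nor a version with 1 mismatch), of the strongest X peak with a DNA replication-related element (DRE, TATCGATA, at CG11151) and of an X peak with a cAMP response element (CRE, TGACGTCA, at regucalcin) are given here, with the DRE and the CRE in capitals.
Ugalt promoter (chrX:2703859-2703959): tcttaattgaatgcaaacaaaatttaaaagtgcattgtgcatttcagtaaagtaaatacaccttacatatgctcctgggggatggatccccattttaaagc
CG11151 promoter (chrX:13739441-13739541): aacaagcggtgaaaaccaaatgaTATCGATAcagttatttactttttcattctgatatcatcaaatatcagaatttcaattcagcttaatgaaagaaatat
regucalcin promoter (chrX:12015087-12015187): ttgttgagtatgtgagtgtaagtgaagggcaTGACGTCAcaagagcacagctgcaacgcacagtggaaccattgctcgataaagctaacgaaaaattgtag

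AP-1 words were found at 3.57% of X peaks (23 of 644, 95% Wilson interval 2.39 to 5.30%) and at 4.18% of autosomal peaks (132 of 3159). The share over all nuclear peaks was 4.08%, and the difference of -0.61 percentage points (interval -2.01 to 1.24) was not past the threshold (Fisher's exact test, two-sided, adjusted p = 0.78). On the X the word stood out at the summit when set against its surroundings, since windows of 101 bp placed 500 bp to the left and to the right held it at 4 and 2 of 644 peaks. The mean flank share was 0.466%, and the summits were 3.11 percentage points above it (exact McNemar test over peaks, larger p of the 2 sides, adjusted p = 0.0016). With flanks 1000 bp away the flank share on the X was 0.854% and the adjusted p was 0.060, and among the X peaks in the stronger part of the list, 8 of 300, it was 0.23. Over all 101 bp windows of the X the word was at 0.732%, above its share in the flanks 500 bp away. The contrast was not particular to the X, as autosomal flanks at 500 bp held the word at 0.871%, against 4.18% of autosomal summits.

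The X carried 1834 AP-1 words, 78.1 per Mb, against 84.5 per Mb on the autosomes. Only 24 of the words on the X (1.31%) lay within 50 bp of a summit, against 1.43% of those on the autosomes. By location, 11 of 365 words near X promoters (3.01%), 10 of 852 in introns (1.17%) and 2 of 383 between genes (0.522%) lay at a summit. None of the 97 words in coding exons of the X did, which allows a share of up to 3.81% (upper Wilson bound).

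The peaks with an AP-1 word included some of the strongest of the X and many weak ones. The word was at 4 of the 25 strongest X peaks. With nuclear peaks in 5 groups by signal, strongest to weakest, it was at 4.55%, 0.826%, 2.44%, 6.08% and 3.52% of the X peaks, which is no steady order. The median signal of the 23 peaks was 89.3, against 101.1 for the 621 X peaks without it, and 8 of 23 (34.8%) lay above the median of all nuclear peaks, against 292 of 621 (47.0%). Signal here is the value the authors' peak caller gave each region, and the scale differs from list to list. Zw, glucose-6-phosphate dehydrogenase and the entry enzyme of the pentose phosphate pathway, had a peak with the word in its intron, with a signal of 858.9 in the pooled data, 497.1 in replicate 1 and 366.4 in replicate 3. The peak over the promoter of sqh, the regulatory light chain of non-muscle myosin, had 379.9 pooled, 179.5 in replicate 1 and 192.7 in replicate 3. The Pp2C1 intron, in a gene for a protein phosphatase, had 326.8 pooled, 177.9 in replicate 1 and 144.9 in replicate 3. These 3, the hexokinase gene Hex-A (324.2) and RhoGAP18B (254.2) stood well above the other 18.

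After these, the next of the 10 strongest peaks with the word were at mys (121.7), the beta subunit of integrin, at cib (112.9), an actin-binding beta-thymosin, at DAAM (107.7), a formin that builds actin filaments, at CG4025 (101.6) and at sn (92.0), the fly fascin that bundles actin. The remaining 13 had signals from 71.5 to 89.9. They lay near or in rut, an adenylyl cyclase, Lamtor5, sdt and dlg1, which shape epithelial polarity, Ptpmeg2, CG34417, CG2938, CG8300, rush, CG32719, RhoGAP18B again, Tlk and dnc, a cAMP phosphodiesterase. The Ptpmeg2 summit shares its interval with a stronger one, so its replicate signals are not its own. Of the 23 peaks, 11 were at promoters, 9 in introns, 2 between genes and 1 in a non-coding gene, and 17 were among the top 3827 regions of both replicates.

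Of the other words, a CA repeat (CACACACA or TGTGTGTG) was more frequent near X summits than near autosomal ones. It was found at 38 of 644 X peaks (5.90%), against 104 of 3159 (3.29%), a difference of 2.61 percentage points (interval 0.90 to 4.78, Fisher's exact test, adjusted p = 0.010). The word was also common beside the X peaks: the flanks of X peaks held it at 5.05%, against 3.18% for the flanks of autosomal peaks. Over all windows of 101 bp it was found at 3.01% on the X and 1.90% on the autosomes, with 995.9 and 485.8 words per Mb. The share at X summits was 1.17 times the mean share of their own flanks. Each flank was tested singly, and the larger p of the 2 sides was 0.81 (exact McNemar test, unadjusted). By Fisher's exact test, the difference between X and autosomal peaks missed the threshold without replicate 3 (2.04 points, adjusted p = 0.060), in the peaks of both top lists (1.79 points, 0.19), away from promoters (1.15 points, 0.67) and under a stricter signal threshold (0.71 points, 0.67).

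GA repeats (GAGAGAGA or TCTCTCTC), words also found in sites where the MSL complex enters the X, were at 14 X peaks (2.17%) and at 41 autosomal peaks (1.30%). The difference of 0.88 points (interval -0.11 to 2.36) was not past the threshold (Fisher's exact test, adjusted p = 0.22), and the flanks of the X peaks held the repeat at 2.17% too. The DRE, the word bound by the promoter factor Dref, was at 23 X peaks (3.57%) and 3.17% of autosomal peaks, a difference of 0.41 points (interval -0.95 to 2.22, Fisher's exact test, adjusted p = 0.78). All 23 DRE peaks on the X were at promoters, and none of the 23 held an AP-1 word. The X flanks held the DRE at 0.311%. At X promoter peaks alone the DRE share was 5.57%, and over all windows of that width centred on X transcription starts it was 5.83%. The CRE was at 4 X peaks, those at Axs, regucalcin, Rip11 and cib, with signals from 73.8 to 109.2, and at 12 autosomal peaks (Fisher's exact test, adjusted p = 0.50). A version of the AP-1 word with at most 1 mismatch, and none at its central base, was also counted. It was at 19.3% of X peaks and 19.5% of autosomal peaks (Fisher's exact test, adjusted p = 1.0). The flanks of X peaks held it at 10.9% and those of autosomal peaks at 13.5%. Over all 101 bp windows of the X it was at 14.3%, and over those centred on X transcription starts at 14.6%.

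**Figure D1:**
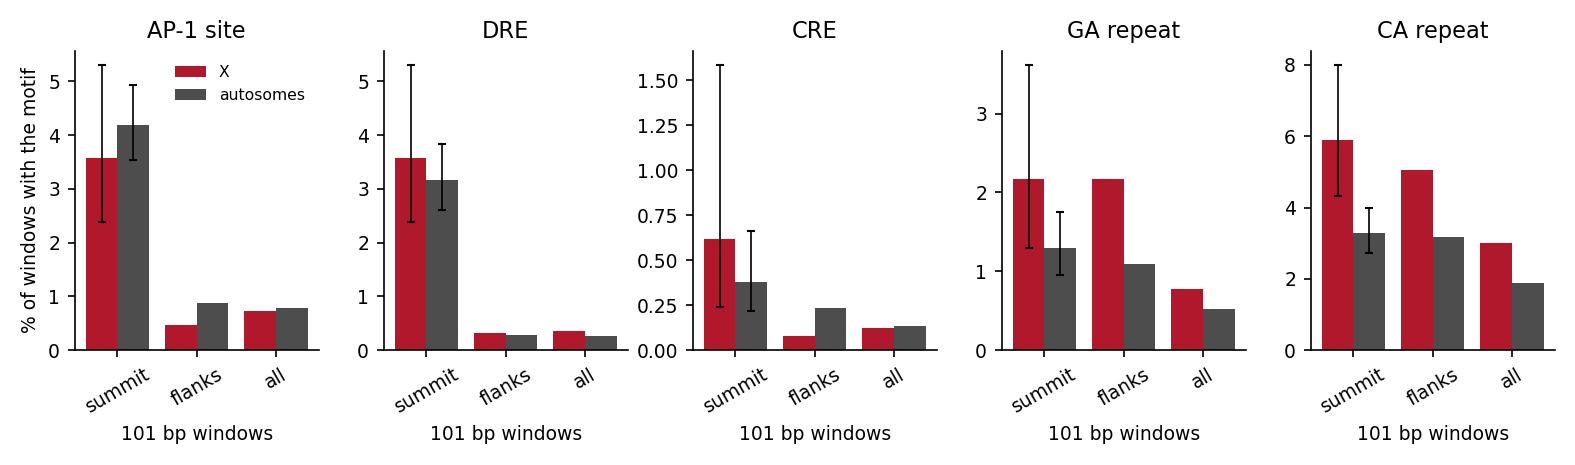
Share of 101 bp windows that hold each word, in percent, on the X (red) and the autosomes (grey), at peak summits (bars with 95% Wilson intervals), in the flanks 500 bp away, and over all windows of the arms. The AP-1 word was at 3.57% of X summits and 0.466% of X flanks, while the CA repeat was at 5.90% of X summits and 5.05% of X flanks.

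The X held its share of the peaks. It carried 27.4 peaks per Mb of sequence without gaps, against 28.7 on the autosomes, a ratio of 0.957 (exact binomial test, two-sided, adjusted p = 0.50), and 16.9% of nuclear peaks in 17.6% of the sequence. Single autosomal arms ran from 12.0 per Mb on chromosome 4 to 29.9 on 2L. Per 100 protein-coding genes the X had 29.3 peaks and the autosomes 26.9, since the X has 93.5 such genes per Mb and the autosomes 106.6. In the peaks that were among the top regions of both replicates the density ratio was 0.848 (exact binomial test, adjusted p = 0.0078), and using just the replicate 3 list it was also 0.848 (adjusted p = 0.0010), so this count depends on the replicate.

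A promoter peak, with its summit within 1000 bp of a transcription start, was found for 447 of 2196 protein-coding X genes (20.4%), against 2392 of 11749 autosomal genes (20.4%). The share over all arms was 20.4%, and the difference was -0.0040 percentage points (interval -1.79 to 1.87, Fisher's exact test, adjusted p = 1.0). Using just the replicate 3 list, the difference was -2.999 points (Fisher's exact test, adjusted p = 0.0051), and in the peaks of both top lists -2.04 points (adjusted p = 0.033). A single summit served 358 of the 447 X genes, and 89 had more. Because promoters lie close together, 130 of the 413 promoter summits on the X lay near 2 genes and 7 near more, so a gene counted here is not always the nearest one. In the authors' pooled list, 644 of 5254 X regions (12.3%) had passed into the reproducible list, against 12.8% of autosomal regions and 12.7% overall (Fisher's exact test, adjusted p = 0.50).

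**Figure D2:**
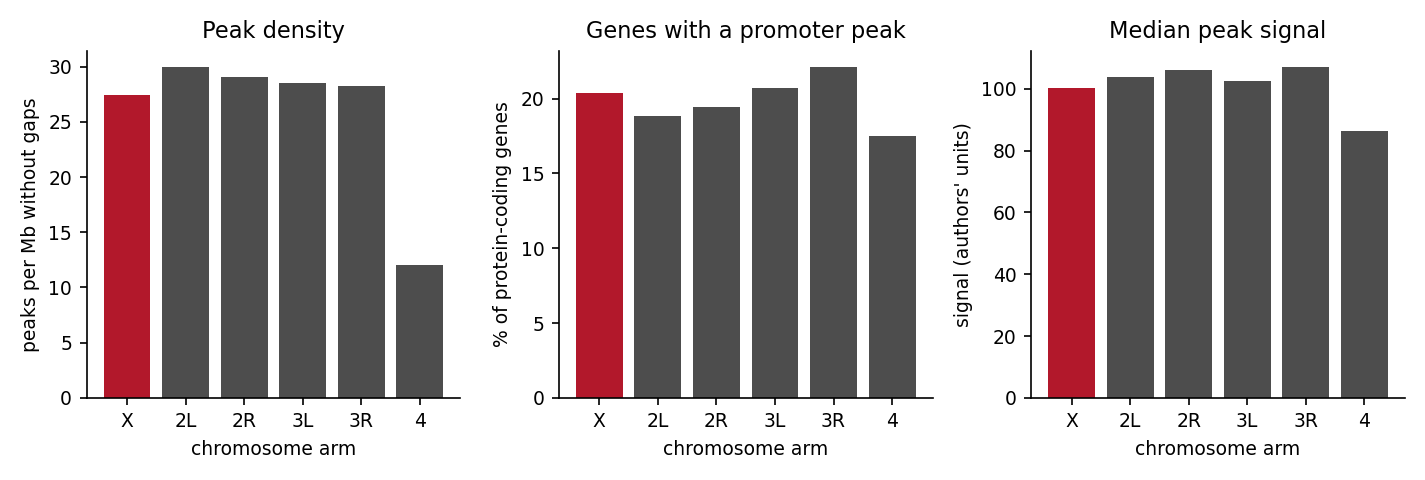
Peaks per Mb without gaps, percent of protein-coding genes with a promoter peak, and median peak signal in the authors' units, for the X (red) and the autosomal arms (grey). The X bars, at 27.4 peaks per Mb, 20.4% of genes and a median of 100.4, compare with ranges over the large autosomal arms of 28.3 to 29.9 peaks per Mb, 18.8 to 22.1% and 102.5 to 107.0.

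Where on the genes the X peaks lay differed from the autosomes away from promoters. Promoters held 413 X summits (64.1%) and 64.1% of autosomal summits, a difference of 0.06 points (interval -4.07 to 4.05, Fisher's exact test, adjusted p = 1.0). Introns held 182 X summits (28.3%), against 23.2% on the autosomes, 5.06 points higher (interval 1.39 to 8.93, Fisher's exact test, adjusted p = 0.022). Intron summits on the X clustered in some genes, with 9 each in kirre and Raf and 7 each in CG1677 and Tlk. The test counts each summit as independent, so its p and interval may be too narrow. Intergenic sequence held 30 X summits (4.66%), against 320 autosomal summits (10.1%), a difference of -5.47 points (interval -7.23 to -3.31, Fisher's exact test, adjusted p = 6.4e-05). The arms behind the autosomal values were unlike: intergenic shares ran from 7.21% on 2R and 7.28% on 3R to 11.1% on 2L and 15.0% on 3L, and intron shares from 22.6% to 24.0% on these 4 arms. The X lay outside both ranges, and no arm was tested singly. The X has less intergenic sequence to begin with, 21.4% of its bases against 27.2% on the autosomes, and slightly more intron, 37.96% against 36.1%. Relative to those bases, intergenic summits were at 0.217 of an even spread on the X and at 0.373 on the autosomes. The rest of the X summits were 11 in non-coding genes or pseudogenes, 7 in 3′ UTRs, 1 in a coding exon and 0 in 5′ UTRs outside promoters.

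Promoter summits on the X lay further from the start. Their median distance to the nearest transcription start was 143 bp, against 112 bp on the autosomes, and 268 of 413 (64.9%) lay within 250 bp, against 74.1%. With promoters defined by 250 bp in place of 1000 bp, the promoter share was 41.6% on the X and 47.5% on the autosomes, a difference of -5.84 points (Fisher's exact test, adjusted p = 0.018), so the promoter shares of the X and the autosomes depend on the window used.

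**Figure D3:**
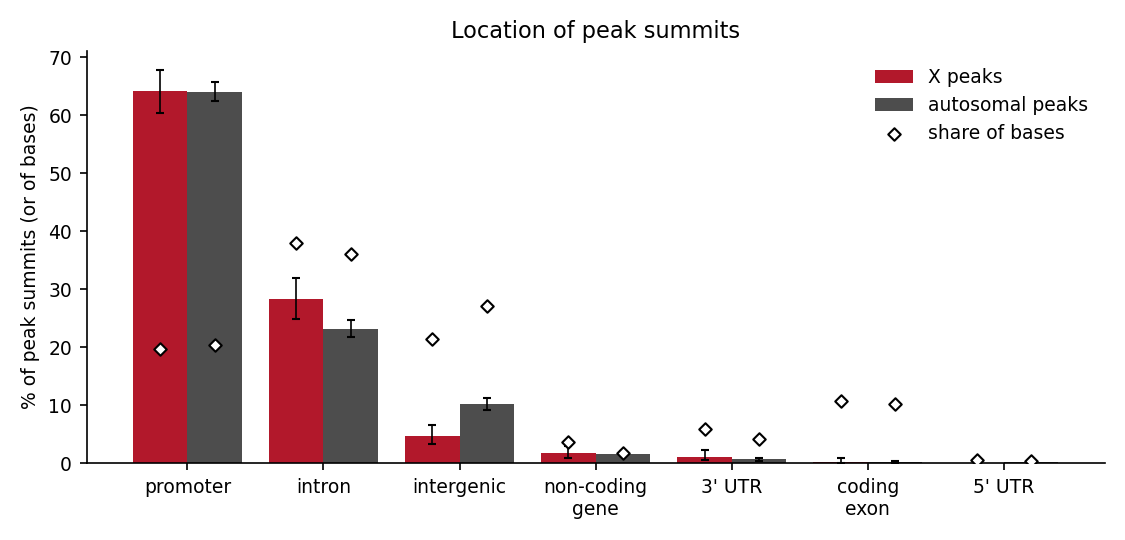
Percent of peak summits in each annotation class on the X (red) and the autosomes (grey), with 95% Wilson intervals, and the percent of bases in that class (white diamonds). X summits were 28.3% intronic and 4.66% intergenic, against 23.2% and 10.1% on the autosomes.

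Among the 25 strongest X peaks, 10 were at promoters, 11 in introns, 3 in non-coding genes and 1 in a 3′ UTR, and 4 of 25 held an AP-1 word. All 25 were among the top regions of both replicates. The strongest peak of the X, with its summit at -57 bp from the start of Ugalt, a UDP-galactose transporter, had a signal of 923.6 pooled, 592.0 in replicate 1 and 340.1 in replicate 3, and ranked 5 among all nuclear peaks. The promoter of eIF2Bbeta, a subunit of a translation initiation factor, lies within the same distance limit, so this summit counts for both genes. The third, near ph-p, a subunit of Polycomb repressive complex 1, had 678.5 pooled, 445.8 in replicate 1 and 249.3 in replicate 3. A peak of 647.0 stood in a non-coding gene 6052 bp from the start of CG4004, with 425.1 in replicate 1 and 228.7 in replicate 3, and a second one nearby reached 325.8.

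An intron of norpA, the phospholipase C of photoreceptor signalling, held a peak of 600.5 pooled, 388.3 in replicate 1 and 210.1 in replicate 3. The promoter of LPCAT, an acyltransferase of phospholipid synthesis, had 589.6 and that of Gapdh2, a glycolytic dehydrogenase, 530.7. Intron peaks in CG32772 (554.1), Tlk (497.9), the tousled-like kinase that acts on chromatin assembly, CG3726 (443.1) and Raf (427.4) followed, with promoter peaks at Ptpmeg2 (473.8), a tyrosine phosphatase, and at MFS10 (453.9), a membrane transporter. The peak nearest peb, a zinc-finger regulator known as hindsight, lay at -6926 bp from its start, in a non-coding gene (330.4). The others were at bves (310.7), Ptp10D (296.4), a receptor tyrosine phosphatase, CG34417 (294.8), CG8034 (294.3), sloth1 and sloth2 (291.5), CG7872 (259.9) and an intron of kirre (259.2). In these 25 peaks the signal in replicate 1 exceeded that in replicate 3 except at sqh, which says nothing about binding, as each list has its own scale.

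Peak signal was slightly lower on the X, and the difference was not past the threshold. X peaks had a median of 100.4 and ran from 70.6 to 923.6, and autosomal peaks had a median of 104.7. Of the X peaks, 300 (46.6%) lay above the nuclear median of 104.1, against 50.7% of autosomal peaks, a difference of -4.10 points (interval -8.30 to 0.14, Fisher's exact test, adjusted p = 0.16). With nuclear peaks divided by signal into 5 groups of like size, strongest to weakest, the X held 14.5%, 15.9%, 16.2%, 19.5% and 18.7%. Promoter peaks had medians of 100.1 on the X and 107.2 on the autosomes, and peaks elsewhere 101.01 and 101.13. Of the 100 strongest nuclear peaks 14 were on the X.

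Fewer X than autosomal peaks were among the strongest regions of both replicates. Of the 644 X peaks, 402 (62.4%) overlapped one of the top regions of both replicates, against 70.5% of autosomal peaks and 69.1% of all nuclear peaks. The difference was -8.04 points (interval -12.2 to -4.05, Fisher's exact test, adjusted p = 6.2e-04). By replicate, the top regions of replicate 3 included 75.2% of X peaks, against 82.3% of autosomal peaks (interval of the difference -10.8 to -3.65), and those of replicate 1 included 85.2% and 86.2% (interval -4.15 to 1.84). Whether these 2 differences differ from each other was not tested. Another 147 X peaks (22.8%) were in the top regions of replicate 1 only, and 82 (12.7%) in those of replicate 3 only. The median signal of the X peaks was 60.5 in replicate 1, against 62.4 for autosomal peaks, and 46.8 in replicate 3, against 52.3.

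In subsets chosen after the values were seen, the difference passed the threshold among weaker peaks and at promoters. Among peaks at or below the nuclear median signal, 34.3% of X peaks and 44.4% of autosomal peaks were in both top lists (Fisher's exact test, adjusted p = 0.0029), and above it 94.7% and 95.8% (adjusted p = 0.54). At promoters the shares were 61.5% on the X and 72.5% on the autosomes (Fisher's exact test, adjusted p = 1.1e-04), and away from promoters 64.1% and 66.9% (adjusted p = 0.67). Whether the effect differed between these subsets was not tested. The X took 17.5% of all regions in the replicate 1 list and 16.7% of those in the replicate 3 list.

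**Figure D4:**
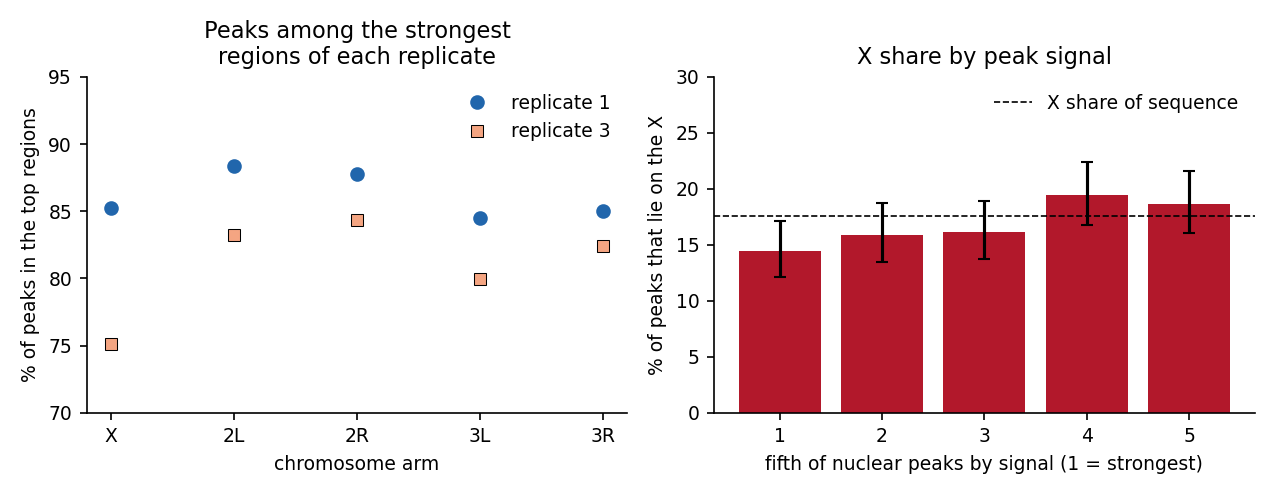
Left, percent of peaks on each large arm that overlap one of the top regions of replicate 1 (circles) and replicate 3 (squares), on an axis from 70 to 95%. Right, percent of nuclear peaks that lie on the X in each of 5 groups by signal, strongest first, with 95% Wilson intervals and the X share of sequence as a dashed line. The X stands at 85.2% in replicate 1 and 75.2% in replicate 3.

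Along the chromosome the peaks thinned towards the centromere, which lies at the right end of the X. In bins of 1 Mb the median was 30 peaks, as on the autosomes. Left of the midpoint there were 394 peaks and 1127 protein-coding genes, or 35.0 peaks per 100 genes, and right of it 250 peaks and 1069 genes, or 23.4 per 100 genes. Promoter peaks served 22.3% of the genes on the left and 18.3% on the right. AP-1 words were at 19 of the left peaks (4.82%) and 4 of the right (1.60%). These are few peaks, and the differences between left and right were not tested. Both replicates had more top regions on the left, with 401 left and 259 right in replicate 1 and 364 and 218 in replicate 3.

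The densest bin, from 2 to 3 Mb, held 46 peaks with a median signal of 130.0, and its strongest peaks were those at Ugalt, ph-p and Raf. The next bin, from 3 to 4 Mb, held 45 peaks with only 55 protein-coding genes, and 26.7% of its summits were at promoters. By contrast, 91.4% of the 35 summits between 8 and 9 Mb were at promoters. The bin from 22 to 23 Mb had 0 peaks although it has 46 protein-coding genes. It lies in the longest stretch of the X without a summit, 1383 kb with 48 genes, near the right end of the X. The longest of the other stretches between neighbouring summits was 479 kb with 23 genes. From the last summit to the right end of the sequence a further 529 kb with 11 genes held none. The large autosomal arms had longer empty stretches, arm ends included: 1495 kb on 2L, 3222 kb on 2R, 4168 kb on 3L and 4197 kb on 3R. Of full 1 Mb bins, 1 of 23 on the X and 10 of 109 on the autosomes held 0 peaks. Across the 23 full bins, peak and gene numbers had a rank correlation of 0.37 (Spearman) and a linear one of 0.37 (Pearson), and the top regions of the 2 replicates a rank correlation of 0.93. These are descriptions of neighbouring bins of 1 chromosome.

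**Figure D5:**
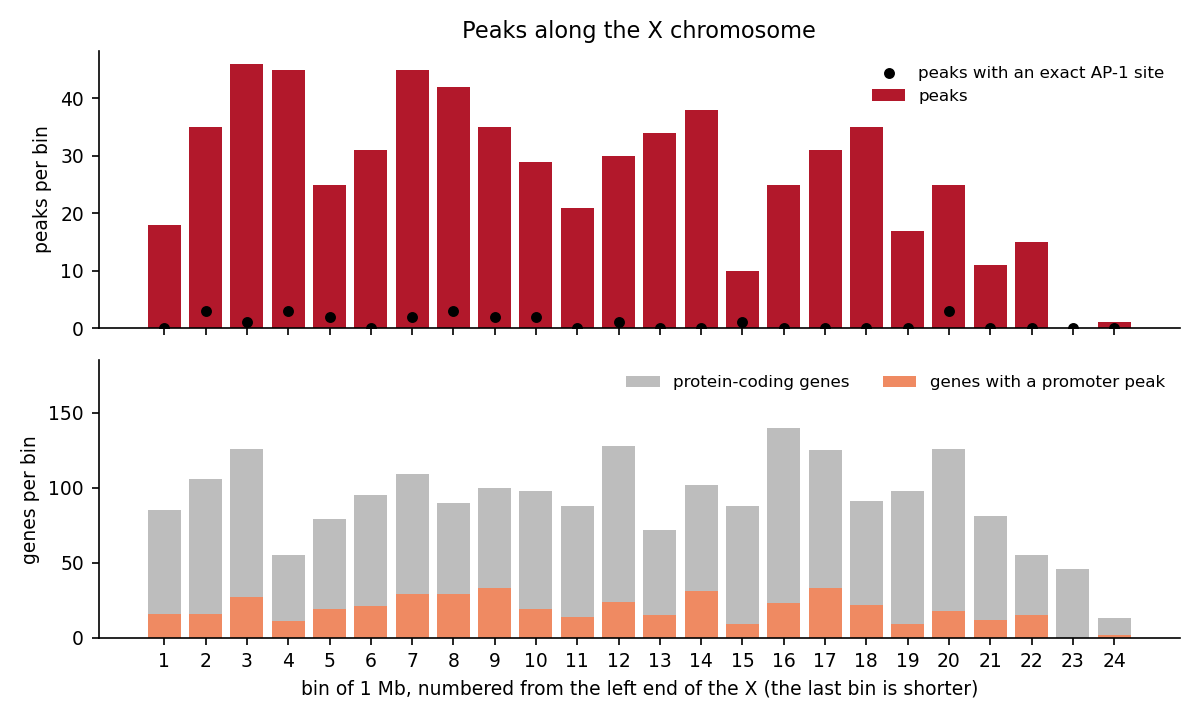
Peaks (red bars) and peaks with an AP-1 word (black points) in each 1 Mb bin of the X, above, and protein-coding genes (grey) with those that had a promoter peak (orange), below. Bin 3 held 46 peaks, bin 4 held 45 peaks with 55 genes, and bin 23 held 0 peaks with 46 genes.

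Some X genes held many summits. The adhesion gene kirre, whose product lets muscle founder cells attract fusion partners, had 10 summits over 394 kb, with signals from 78.6 to 259.2. The strongest of these is nearer to the start of CG4116, and others to those of CG32795 and Syx4. CG1677 had 10 summits over 124.7 kb, but each is nearer to the start of another gene within or beside it, such as Dok, whose promoter peak is the strongest (167.4), brk, CG2059 and CBP. Tlk had 9 over 69.8 kb, all nearest to its own starts. Raf, the kinase between Ras and MEK, had 9 summits over 48.4 kb, all in introns and none near an AP-1 word, with a median signal of 140.6. Its strongest had 427.4 pooled, 256.2 in replicate 1 and 175.3 in replicate 3, and 2 genes nested in it are nearer to some of the summits. CHES-1-like, a forkhead transcription factor, had 7 within 27.05 kb, with signals from 99.2 to 252.7. Another 3 X genes, CG43658, Tis11 and Mnt, also had 7, with lower highest signals. On the X 40 of 2196 protein-coding genes (1.82%) held 3 or more summits, against 169 of 11749 on the autosomes (1.44%), where the most in 1 gene was 16, against 10 on the X. These shares were not tested.

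Members of 16 gene lists are counted next by promoter peak, beside the 20.4% of all genes. Of the 141 X genes on them 43 had one. The lists also hold autosomal genes, few in each. Their share was lower than on the X in the ecdysone (5 of 12), neuronal (0 of 3), clock (2 of 7) and pigment (0 of 3) lists. For sex determination it was 0 on both. In all other lists it was higher on the autosomes, as for redox (7 of 8), JNK and TNF (6 of 9) and cytoskeleton (3 of 4) genes. These shares were not tested. In the JNK and TNF list 3 of 6 X members had a promoter peak: Traf6, an adaptor of TNF signalling, had 125.3 pooled, 85.0 in replicate 1 and 41.7 in replicate 3, the GTPase Cdc42 had 94.9 and the kinase Tak1 81.5. No summit was near hep, the kinase that activates JNK, slpr, which activates hep, or the receptor gene wgn. In the JAK-STAT list 1 of 7 had one, at hop, the JAK kinase (75.7), and the same summit also counts for the neighbouring gene Tim8. The ligand gene upd3 had a summit of 259.0 in an intron, while upd1, upd2 and the receptor gene dome had none within them or upstream. The Ras list had 1 of 6, at the phosphatase csw (89.4). The Notch and Wingless list had 2 of 8, at sgg, the fly GSK3 (188.0), and arm, the fly beta-catenin (94.8), and N had summits up to 168.0 away from its promoters.

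Genes of cell shape and chromatin are counted next, without a test. In the cytoskeleton, adhesion and muscle list 11 of 18 X members had one, with a median signal of 103.5. The strongest were sqh, then par-6, a polarity protein (180.6), Act5C, a cytoplasmic actin (150.3), and shi, the fly dynamin (130.3). Among chromatin regulators 6 of 15 had one, led by ph-p, Bap60 of the Brahma remodelling complex (163.8), ph-d, the neighbouring copy of ph-p (153.3), and the topoisomerase gene Top1 (137.1). ph-p and ph-d are similar neighbouring copies, so reads may have been split or shared between them. Of transcription and housekeeping genes 7 of 14 had one, led by the ribosomal protein gene RpS14b (151.8), which has a near copy beside it, Top1 again, and the ribosomal protein genes RpL22 (121.0) and RpL17 (86.6). For ecdysone genes it was 2 of 4, at usp, the partner of the ecdysone receptor (151.6), and br, the Broad transcription factor (93.0), and the nuclear receptor gene Hr4 had 5 summits in its introns, up to 256.3.

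The remaining lists hold genes of nerve cells, patterning, redox balance, pigment and sex. In the neuronal list 4 of 15 had a promoter peak, at elav (188.8), dnc (188.8), norpA (130.4) and rut (95.3), while para, Sh, cac and eag, genes of ion channels, had none. The list of patterning transcription factors, which also holds otu, a gene of another kind, had 2 of 14, at sd (104.3) and disco-r (71.2). Redox genes had 2 of 7, at GstT4 (129.5) and Pgd (75.5), and the intron summit of Zw, at -1119 bp from its nearest start, lay just outside the 1000 bp that define a promoter here. The pigment and cuticle colour list, which also holds the DNA repair gene mei-9 and the wing genes m and dy, had 3 of 11. These were rb (124.3), ras (77.9) and g (73.3), and no region of the replicate 3 list overlapped the rb peak. The clock list had 1 of 3, at sgg. The dosage compensation genes on the X, roX1, roX2 and mof, had 0 promoter peaks and no summit within them. The list for sex determination held Sxl, snf, sisA, run, sc, l(1)sc, ac and ase, and l(1)sc, ac and ase are mainly neural genes. It had 0 of 8, with 1 summit of 121.7 at Sxl away from its promoters. The glue and salivary gland genes had 0 of 6.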

How the data were processed

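Jra-GFP ChIP-seq was deposited as peak lists for 2 biological replicates, their pool and a reproducible (IDR) list, on dm6 and dm3. The files deposited with the lists give each list's inputs. The aligner, caller and IDR threshold: not given in the sources used here. The signal of a region is as the authors deposited it, with a separate scale per list, and read depth is unknown. The dm6 lists were used. Positions were annotated with Ensembl release 115 gene models on the RefSeq Release 6 sequence. Classes were assigned in the order promoter (summit within 1000 bp of a protein-coding start), 5′ UTR, 3′ UTR, coding exon, intron, non-coding gene and intergenic. Words on either strand were counted up to 50 bp from each summit. The 3827 regions of highest signal in a replicate list are its top regions, and overlap means at least 1 bp.

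X and autosomal shares were compared with exact tests in scipy 1.17.1, with Benjamini-Hochberg adjustment over 15 results and a threshold of 0.05. Intervals are Wilson or Newcombe 95% intervals. Tests and intervals treat peaks or genes as units and cover counting error, not the spread between animals. They count neighbouring peaks as independent, although 130 pairs of neighbouring X summits lay under 2000 bp apart. Code was tested on simulated data. The members, gene lists and tests were chosen with earlier results of these data known. Named genes are the 25 strongest X peaks, the peaks with an AP-1 word, the top 4 of each list and any JNK member, the 5 genes with most summits (ties by highest signal), and the densest and emptiest bins. Of 250 listed symbols 4 had no match.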

Additional observations from a re-analysis of the deposited data

How the results depend on the processing

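Of 108 alternatives, 83 kept direction and side of the threshold, including every one run for intron, intergenic, CRE, signal and pooled-list shares. Differences not past the threshold changed sign as follows. For promoter share they were -5.84 (then past the threshold) and -1.89 points with windows of 250 and 500 bp, -2.72 in both top lists, -1.96 under the stricter threshold and -1.57 to -1.34 leaving out a replicate. They were 1.71 (both top lists) and 1.14 (stricter) for the AP-1 word with a mismatch, 0.10 for the exact word in both top lists, -0.15 for the DRE within 25 bp, and -0.12 and -0.23 for GA repeats in both top lists and under the stricter threshold. Density per protein-coding gene gave a ratio of 1.09. The call was gained for density (0.848 in both top lists; 0.848 to 0.978 leaving out a replicate, the lower value without replicate 1) and for genes with a promoter peak (-2.04 in both top lists; -2.999 to -0.206 leaving out a replicate, called without replicate 1). It was lost for AP-1 against flanks (2.72 points at 1000 bp, 2.0 stricter), for CA repeats (1.15 away from promoters, 1.79 in both top lists, 0.71 stricter, 2.04 to 3.32 leaving out a replicate, lost without replicate 3), and, in subsets chosen after seeing the data, for membership of both top lists (-1.15 points above the median signal, -2.80 away from promoters). Counting non-coding genes as intergenic, also chosen after seeing the data, gave -5.31 points and kept the call. The causes were not tested. No paired analysis was possible because the samples form 1 group. Regions of 440 bp median width and unknown depth limit how finely summits and weak peaks can be judged.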
